A study of Mus musculus with 36 samples.

Results

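The change in gene expression between 18 and 120 hr post induction (hpi) was followed in B cells carrying the C/EBPα R35K mutant. The comparison rests on the 4 libraries labelled R35K at these timepoints, 2 biological replicates at 18 hpi and 2 at 120 hpi, out of the 36 libraries of the series. They were chosen by the construct and the time in their labels, and no expression value entered the choice. The series is an RNA-seq time course of the C/EBPα-induced conversion of B cells into macrophages (BMT) from 0 to 120 hpi, with steps at 1, 3, 6 and 18 hpi, with wild-type C/EBPα, R35A or R35K. All groups started from bone marrow B cells of C57BL/6J mice, infected with a retrovirus that encodes C/EBPα fused to the estrogen receptor (ER) and the human CD4 surface marker. In R35K the arginine that the methyltransferase Carm1 modifies was replaced by lysine, and in R35A by alanine. Infected cells, selected for human CD4, grew on inactivated mouse embryonic fibroblasts (MEFs) with IL-7 and, in the study's methods, IL-3, FLT-3, CSF-1 and SCF. BMT was started with estradiol (E2). In those methods the medium renewed every 2 days lacked IL-7, so a loss of IL-7 by 120 hpi cannot be told apart from time. Feeders were removed by their adherence to plastic before RNA was extracted, and a remnant of feeder RNA can reach a library. The labels call the R35K cells B cells at 18 hpi and macrophages at 120 hpi. The comparison asks how far expression still moved in the later, longer interval of BMT, and whether R35K, wild-type and R35A cells moved by the same amount.

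C/EBPα is a leucine zipper transcription factor of granulocyte and macrophage progenitors, and its forced expression in B cells silences B cell genes and activates macrophage genes together with its partner PU.1. Macrophages are phagocytes that take up particles through Fc, complement and scavenger receptors, digest them in lysosomes and signal through Toll-like receptors, cytokines and chemokines. B cell precursors depend on Pax5, Ebf1 and related factors and on the pre-B cell receptor.

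The 4 libraries held between 15029447 and 16767417 counts on genes, and the R35K libraries of all times between 14668754 and 23131776. Depth was therefore similar at both times. Replicates of a group differed by 1.35 times (18 hpi) and 2.24 times (120 hpi) the variance that counting alone gives, and the biological coefficient of variation was 3.49%. The labels do not say whether replicates came from separate mice, so p-values measure the spread between these samples, which may be technical. The labels were checked against marker genes summed per library, in CPM (counts scaled to the size of the library). These sums, and the means in the comparison of constructs, were scaled over all 36 libraries, so they differ slightly from the CPM of single genes in single libraries, which were scaled over the 12 R35K libraries. Over 10 macrophage markers the sum lay between 1819 and 1854 CPM at 18 hpi and between 7446 and 7544 CPM at 120 hpi, after 48.2 to 51.5 CPM at 0 hpi. Over 8 B cell markers it was 2875 to 2895 CPM at 0 hpi, 300.1 to 305 CPM at 18 hpi and 121.0 to 123.2 CPM at 120 hpi. Cells labelled B cells at 18 hpi thus already carried macrophage transcripts at high levels and B cell transcripts at low levels. Over 12 fibroblast markers, which mark the feeder cells, the sum was 2625 to 2718 CPM at 0 hpi, 3546 to 3555 CPM at 18 hpi and 552.5 to 650.7 CPM at 120 hpi. The sum for 7 T cell markers stayed at or below 5.14 CPM and that for 6 natural killer cell markers at or below 2.51 CPM in the 4 libraries, and of the 9 neutrophil markers 6 were at the detection floor at 120 hpi, where every library has 3 or fewer counts. The neutrophil sum was almost entirely Mmp8, a collagenase, at 775 and 748 CPM at 18 hpi and 2061 and 2121 CPM at 120 hpi. Over 8 dendritic cell markers the sum went from 49.7 to 55.2 CPM at 18 hpi to 263 to 289 CPM at 120 hpi, most of it Bst2, which is also an interferon-stimulated gene, and over 7 megakaryocyte markers from 322 to 338 CPM to between 570.0 and 626 CPM, most of it the platelet chemokine Pf4. Sums over 8 osteoclast markers were 187 to 188 CPM and 166 to 174 CPM, and those of mast cell and of erythroid markers stayed at or below 11.9 CPM and 0.886 CPM. The part of these cell types in the results was not tested.

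Of 16434 genes tested, 4066 (24.7%) were higher and 4689 (28.5%) lower at 120 hpi, each by at least 1.5-fold with an adjusted p of at most 0.05 (edgeR quasi-likelihood test). The changed genes are called risen and fallen below. In 4062 of the risen and 4683 of the fallen genes the libraries of both times did not overlap. With 2 libraries per time this nearly follows from the calls and adds no support. Genes that were not called, such as Fth1 and Mki67, did not overlap either. By fitted values, falls were the larger changes. A fitted fall of at least 16-fold was given for 1148 genes and a fitted rise of that size for 130. Genes near the floor enter these counts with fitted values that give no fold. At the floor at 120 hpi were 1282 fallen genes, of which 63 had at least 20 CPM at 18 hpi. The fall of feeder transcripts moves with these counts. Because every value is relative to all RNA in the library, fewer cells of a type and less RNA per cell cannot be told apart. As a measured check, 16 genes shared by leukocytes (Ptprc, Coro1a, Lcp1 and others) were examined. Of these 15 rose and none fell. Their median log2 fold change was 1.68, with single genes between 0.47 and 2.24, so they did not move as one. Scaling the libraries to these 16 genes (leukocyte scaling, chosen after the data were seen) moved the median of all genes by -1.57 on the log2 scale and left 772 genes higher and 13369 lower. Each direction below is that of the standard scaling (TMM), and lists whose direction turned under leukocyte scaling are named as such. Scaling to total counts gave 2978 higher and 6156 lower genes, so that 32.6% of calls were higher against 46.4% in the standard scaling.

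The 10 largest rises among abundant genes were macrophage surface lectins and receptors, chemokines, complement and interferon-related genes. Mgl2 (chr11:70130329-70137550, forward strand), a lectin of alternatively activated macrophages that binds galactose-type sugars, was at 0.176 and 0 CPM at 18 hpi and 37.4 and 37.6 CPM at 120 hpi, at least 205-fold higher. Clec10a (chr11:70156197-70170834, forward strand), its close relative, was at 1.76 and 1.58 CPM at 18 hpi and 244 and 229 CPM at 120 hpi. Its rise was 141-fold (log2 7.13 ± 0.1 SE, adjusted p 1.05e-34). Both genes were below 2 CPM at 18 hpi in both libraries, and since they are closely related copies, the split of reads between them is uncertain. The mannose receptor Mrc1 (chr2:14229392-14332057, forward strand), an endocytic receptor of tissue macrophages, was at 43.5 and 40.7 CPM at 18 hpi and 3515 and 3723 CPM at 120 hpi. Siglec1 (chr2:131069220-131086765, reverse strand), the sialic acid receptor known as CD169, was at 17.7 and 18.6 CPM at 18 hpi and 1524 and 1595 CPM at 120 hpi. Cd5l (chr3:87357881-87371073, forward strand), a secreted protein of tissue macrophages, was at 8.64 and 7.16 CPM at 18 hpi and 518 and 535 CPM at 120 hpi. These 3 genes were thus already detected at 18 hpi and then rose by 85.9-fold, 85.9-fold and 66.7-fold (adjusted p 1.62e-40, 1.34e-41 and 1.29e-38), with no overlap between times.

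The monocyte chemokine Ccl12 (chr11:82101845-82103400, forward strand) was at 0.881 and 0.761 CPM at 18 hpi and 219 and 197 CPM at 120 hpi, and its neighbour Ccl8 (chr11:82115185-82116799, forward strand) at 0.529 and 0.634 CPM at 18 hpi and 71.6 and 62.1 CPM at 120 hpi. Complement component C4b (chr17:34728380-34743882, reverse strand) was at 0.352 and 0.317 CPM at 18 hpi and 65.3 and 65.7 CPM at 120 hpi. All 3 were below 1 CPM in both libraries at 18 hpi and rose by 253-fold, 115-fold and 196-fold (adjusted p 2.39e-35, 4.65e-29 and 1.66e-29). Slfn4 (chr11:83175186-83190216, forward strand) and Slfn1 (chr11:83116849-83122670, forward strand) belong to the Schlafen family, several members of which respond to interferon. Slfn4 was at 0.117 and 0.38 CPM at 18 hpi and 86 and 87.9 CPM at 120 hpi and Slfn1 at 0.0587 and 0.444 CPM at 18 hpi and 70.6 and 71.5 CPM at 120 hpi. Both rose from few reads, with 2 and 6 counts for Slfn4 and 1 and 7 for Slfn1 at 18 hpi, so the size of the rise rests on single libraries. It ranged from 224-fold without replicate 1 to 696-fold without replicate 2 at 18 hpi for Slfn4, and from 157-fold to 1072-fold for Slfn1. Like C4b and its copy C4a, both have close relatives among which reads could be split.

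**Figure D1:**
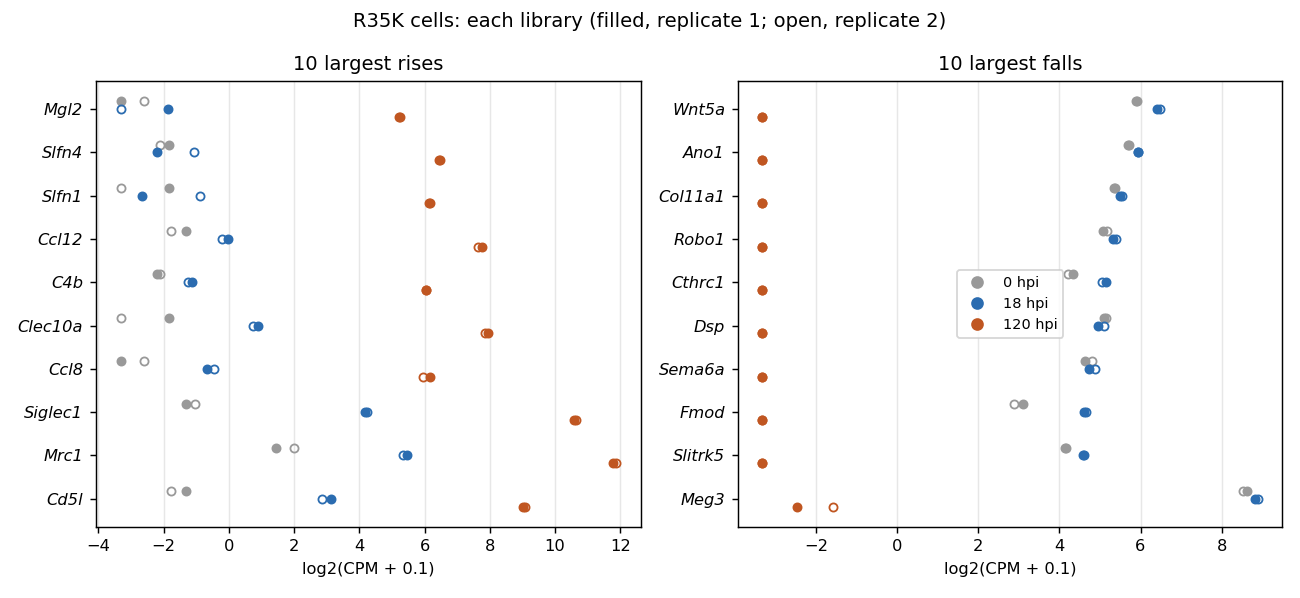
Level of the 10 genes with the largest rises (left) and falls (right) in R35K cells, on a log2(CPM + 0.1) axis with each library as a point at 0, 18 and 120 hpi (filled, replicate 1, and open, replicate 2). Of the risen genes, Mrc1, Siglec1 and Cd5l had already moved up by 18 hpi, while the fallen genes stood as high or higher at 18 than at 0 hpi, apart from Dsp, and 9 of the 10 had 0 counts in both libraries at 120 hpi.

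Genes that mark and make a macrophage rose as groups, from levels already well above those of 0 hpi. Of the 20 macrophage genes listed by the study, which were chosen with these conditions in view and are no independent evidence of direction, 19 rose and none fell, with a median log2 fold change of 2.51 (all genes tested: -0.06). Under leukocyte scaling 13 rose and 2 fell. The exception was Fam20c, a secretory pathway kinase, with a log2 fold change of -0.39. Lyz2 (chr10:117277331-117282321, reverse strand), the lysozyme of myeloid cells, was at 3337 and 3171 CPM at 18 hpi and 17206 and 16787 CPM at 120 hpi, a 5.22-fold rise (log2 2.38 ± 0.029 SE, adjusted p 8.88e-37). Its reads grew from 0.33% to 1.42% of all counts. Itgam, which encodes the Mac-1 integrin chain CD11b, was at 118 and 119 CPM at 18 hpi and 499.9 and 519 CPM at 120 hpi, and the lipopolysaccharide co-receptor Cd14 at 131 and 123 CPM at 18 hpi and 1094 and 1007 CPM at 120 hpi. Both rose without overlap, by 4.29-fold and 8.28-fold, although Itgam no longer reached 1.5-fold under leukocyte scaling. Csf1r, the receptor for the macrophage growth factor CSF-1, was at 1104 and 1086 CPM at 18 hpi and 2069 and 2091 CPM at 120 hpi. Its 1.9-fold rise was smaller than those of Itgam and Cd14 and turned into a fall under leukocyte scaling (log2 -0.64). The chemokine Ccl3 led the list with 18.7-fold.

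All 18 Fc and Toll-like receptor genes rose (median 2.33), and 10 rose and 1 fell under leukocyte scaling. The endosomal RNA sensor Tlr8 was at 22.7 and 22 CPM at 18 hpi and 320.1 and 365 CPM at 120 hpi, and the high-affinity IgG receptor Fcgr1 at 22.2 and 21.6 CPM at 18 hpi and 341 and 322 CPM at 120 hpi. Tlr2, a receptor for bacterial lipopeptides, was at 311 CPM in both libraries at 18 hpi and 2111 and 2120.2 CPM at 120 hpi. These are rises of 15.3-fold, 15.1-fold and 6.8-fold, each far beyond the spread between replicates. Of 13 complement genes tested 12 rose (median 2.5), led after C4b by C1qc, a chain of the recognition protein C1q, at 54 and 53 CPM at 18 hpi and 362 and 325 CPM at 120 hpi. The receptor for C3a, C3ar1, was at 168 CPM in both libraries at 18 hpi and 972 and 1006 CPM at 120 hpi, a 5.88-fold rise. C2 was the 1 member that fell, from 0.940 and 0.887 CPM to 0.239 and 0.389 CPM, a call that was lost with DESeq2 (log2 -1.48) and without replicate 1 at 120 hpi (log2 -1.18). All 6 NADPH oxidase genes, which make the respiratory burst, rose (median 1.61), with Cybb, the catalytic subunit, at 749 and 759 CPM at 18 hpi and 2662 and 2869 CPM at 120 hpi and the cytosolic Ncf1 at 112 and 108 CPM at 18 hpi and 502 and 494 CPM at 120 hpi. Their median was 0.04 under leukocyte scaling, close to the median rise of the 16 leukocyte genes themselves.

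Of 18 phagocytosis and scavenger receptor genes 13 rose and 3 fell (median 2.13), with Mrc1 and Cd5l in front. The endocytic receptor Lrp1 was at 1937 and 2084 CPM at 18 hpi and 3722 and 3939.9 CPM at 120 hpi. Its 1.91-fold rise turned into a fall under leukocyte scaling (log2 -0.64). Olr1, a receptor for oxidized low-density lipoprotein, fell by 10.8-fold, and Mfge8, a bridging protein for the uptake of apoptotic cells, by 2.64-fold. The phosphatidylserine receptor Axl also fell (log2 -1.23), which makes 3 falls in an otherwise risen group. Under leukocyte scaling 9 members rose and 8 fell.

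Most genes of secreted signals rose. Of 15 inflammatory cytokine genes 11 rose and 2 fell (median 2.42), and 9 rose and 5 fell under leukocyte scaling. Il1b (chr2:129364570-129371139, reverse strand), the interleukin-1β gene, was at 7.11 and 5.96 CPM at 18 hpi and 361 and 358 CPM at 120 hpi, and Osm, the gene of the IL-6 family cytokine oncostatin M, at 33 and 37 CPM at 18 hpi and 759 and 731 CPM at 120 hpi. These are rises of 55-fold and 21.3-fold (adjusted p 3.95e-37 and 2.95e-37). The leukaemia inhibitory factor gene Lif was at 146 and 147 CPM at 18 hpi and 88.5 and 85.7 CPM at 120 hpi and the prostaglandin synthase Ptgs2 at 1094 and 1076 CPM at 18 hpi and 640.4 and 699 CPM at 120 hpi. Both fell, by 1.68-fold and 1.62-fold. Of 18 chemokine ligand genes 13 rose and 4 fell (median 2.40), with Ccl6, a myeloid CC chemokine, at 340.3 and 348 CPM at 18 hpi and 2985 and 2958 CPM at 120 hpi, and Cxcl14, also made by fibroblasts, at 86.3 and 89.2 CPM at 18 hpi and 6.14 and 5.06 CPM at 120 hpi. Under leukocyte scaling 9 of the chemokine ligand genes rose and 5 fell. Of 8 chemokine receptor genes 6 rose and 2 fell, and 4 rose and 2 fell under leukocyte scaling. Ccr2, which guides monocytes, was at 47.8 CPM in both libraries at 18 hpi and 1171 and 1259 CPM at 120 hpi and the fractalkine receptor Cx3cr1 at 18 and 19.5 CPM at 18 hpi and 266 and 267 CPM at 120 hpi, rises of 25.4-fold and 14.2-fold. The lymphoid homing receptors Cxcr5 and Ccr7 fell by 4.11-fold and 3.33-fold, from below 2 CPM in every library. Among 11 genes of alternative and classical activation 9 rose, including Arg1 (log2 3.95), the arginase of alternatively activated macrophages, and Nos2 (log2 2.22), the nitric oxide synthase of classical activation, so that markers of both states were higher at 120 hpi. Under leukocyte scaling 7 of the 11 rose and 1 fell. Acod1, which makes the antimicrobial metabolite itaconate, was the 1 member that fell, with 90.5 and 89.3 CPM at 18 hpi and 18.5 and 22.4 CPM at 120 hpi, a 4.39-fold fall (log2 -2.13 ± 0.071 SE, adjusted p 4.67e-24).

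**Figure D2:**
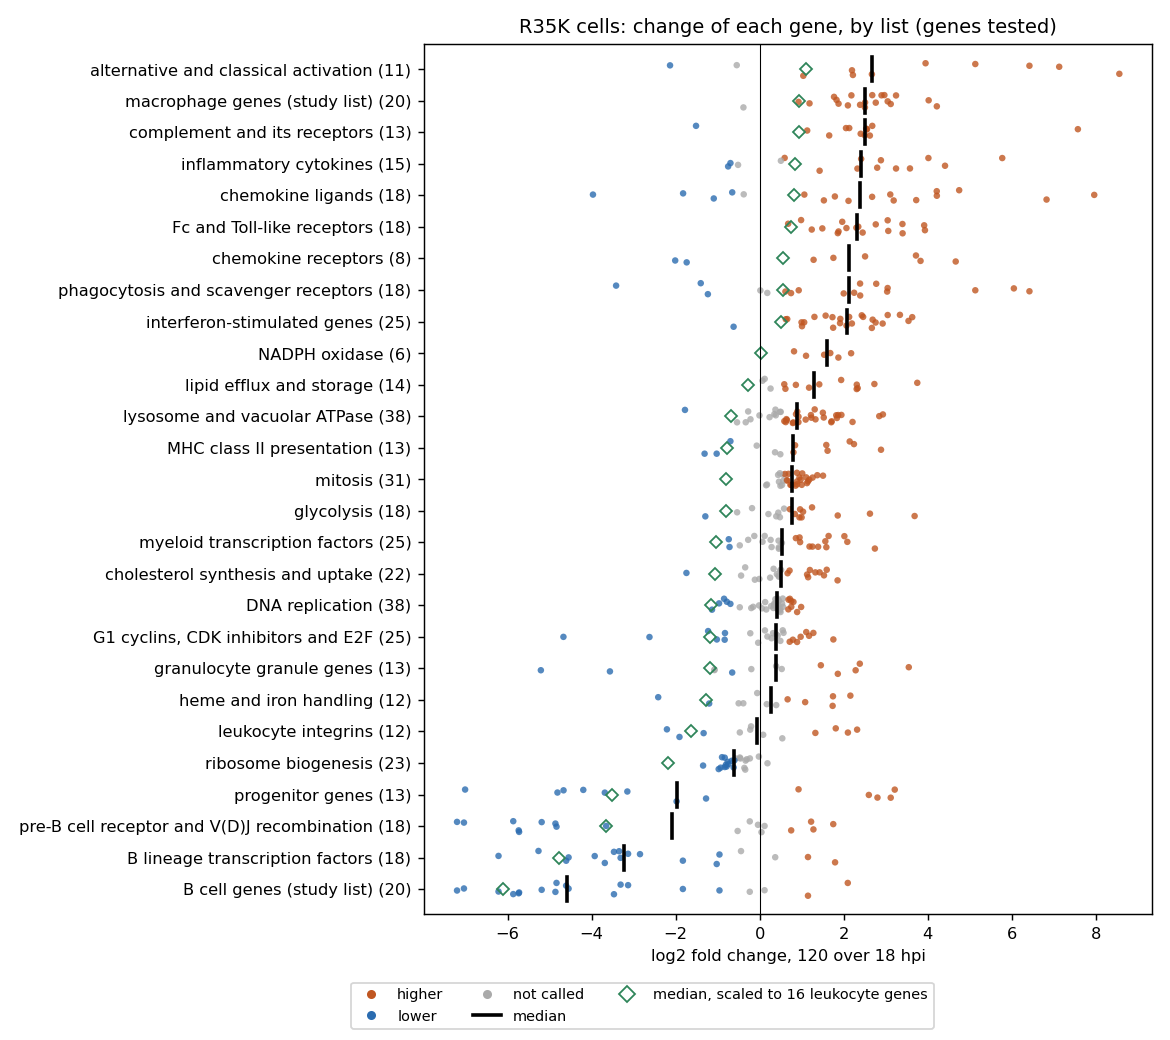
Log2 fold change of each tested gene from 18 to 120 hpi in R35K cells (points), grouped into 27 gene lists ordered by their median (black bar). The upper lists hold macrophage effector genes with medians above 2, the B cell lists lie at the bottom, and green diamonds show that under leukocyte scaling every median shifts left and that of 11 lists, from heme and iron handling (0.28) to lipid efflux (1.30), turns negative.

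Genes of the lysosome, the organelle in which phagocytes digest their load, rose in 26 of 38 cases with 1 fall (median 0.88), but under leukocyte scaling 3 rose and 22 fell (median -0.69), so the direction of this list depends on the scaling. Ctsc, the protease that activates granule enzymes, was at 487 and 480.4 CPM at 18 hpi and 3607 and 3792 CPM at 120 hpi, and the proton pump subunit Atp6v0a1 at 172 and 169.6 CPM at 18 hpi and 1199.6 and 1262 CPM at 120 hpi. They rose by 7.65-fold and 7.2-fold. The saposin precursor Psap was at 5509 and 5425 CPM at 18 hpi and 18116 and 17772 CPM at 120 hpi, and its reads grew from 0.555% to 1.49% of the counts. Ctsk, a collagen-degrading cathepsin also made by fibroblasts, was the 1 member that fell, by 3.43-fold. Of 14 genes of lipid efflux and storage 11 rose and none fell (median 1.30, and -0.27 under leukocyte scaling, a change of sign). The lipid carrier Apoe was at 962 and 959.5 CPM at 18 hpi and 13444 and 12467 CPM at 120 hpi, and the lipoprotein lipase Lpl at 391 and 372 CPM at 18 hpi and 2499 and 2571 CPM at 120 hpi. Their rises of 13.5-fold and 6.64-fold were far above the median of the list. In cholesterol synthesis and uptake 10 of 22 genes rose and 1 fell (median 0.50, and -1.07 under leukocyte scaling). Dhcr7, the last step of cholesterol synthesis, rose by 3.62-fold and the sterol sensor Insig1 by 3.03-fold.

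Iron and heme genes split. Of 12 tested, 5 rose and 2 fell (median 0.28, and -1.29 under leukocyte scaling). The heme oxygenase Hmox1, which breaks down heme, was at 2391 and 2346 CPM at 18 hpi and 1065 and 994 CPM at 120 hpi, a 2.3-fold fall, while the next enzyme of the pathway, the biliverdin reductase Blvra, was at 25.8 and 25.1 CPM at 18 hpi and 119 and 109 CPM at 120 hpi, a 4.47-fold rise. The iron exporter Slc40a1 rose by 3.35-fold. Spic, a transcription factor of iron-recycling macrophages, was at 10.6 and 9.57 CPM at 18 hpi and 1.12 and 2.65 CPM at 120 hpi, and fell by 5.37-fold, or by 8.78-fold without replicate 2 at 120 hpi. The ferritin chain Fth1 moved by a log2 fold change of 0.17, below the threshold. In glycolysis 10 of 18 genes rose and 1 fell (median 0.78, and -0.79 under leukocyte scaling), led by Aldoc (13-fold) and the myeloid hexokinase Hk3 (6.18-fold). The fall of Gapdh is uncertain, since the gene has many processed copies and its level of 15.4 and 19.7 CPM at 18 hpi and 6.86 and 7.4 CPM at 120 hpi is low. Of 13 genes of MHC class II presentation 7 rose and 3 fell (median 0.80, and -0.77 under leukocyte scaling). The invariant chain Cd74 was at 157 and 149 CPM at 18 hpi and 474 and 445 CPM at 120 hpi and the peptide-loading chain H2-DMb1 at 7.58 and 5.45 CPM at 18 hpi and 54.3 and 43 CPM at 120 hpi, whereas the classical chain H2-Eb1 was at 19.9 and 18.8 CPM at 18 hpi and 9.73 and 9.35 CPM at 120 hpi and Ciita, the master regulator of class II genes, at 3.76 and 3.49 CPM at 18 hpi and 1.36 and 1.56 CPM at 120 hpi. Loading components thus rose, by 3.01-fold and 7.47-fold, while Ciita and H2-Eb1 fell, by 2.49-fold and 2.03-fold. Cd74 did not pass the test under leukocyte scaling.

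B cell genes were already low at 18 hpi and most fell further. Of the 20 B cell genes listed by the study, again no independent evidence of direction, 16 fell and 2 rose, and 18 fell and none rose under leukocyte scaling. The median log2 fold change was -4.58, or -3.44 with genes at the floor set to their bound. Pax5 (chr4:44524757-44710487, reverse strand), the factor that keeps B cells committed, was at 864 and 860.1 CPM at 0 hpi and 62.8 and 61.4 CPM at 18 hpi and 0.478 and 1.17 CPM at 120 hpi. Ebf1, which specifies the B lineage, was at 50.9 and 50.8 CPM at 18 hpi and 5.42 and 4.83 CPM at 120 hpi. The falls were 75.4-fold for Pax5 and 9.93-fold for Ebf1 (adjusted p 5.21e-31 and 7.06e-27), so that Ebf1 kept more of its 18 hpi level. Without replicate 2 at 120 hpi the fall of Pax5 was 125-fold. Rag2, a subunit of the recombinase that assembles immunoglobulin genes, was at 1.06 and 2.41 CPM at 18 hpi and 0 and 0.0779 CPM at 120 hpi, at least 7.33-fold lower. Vpreb1 and Igll1, the surrogate light chain of the pre-B cell receptor, fell by at least 128-fold and 133-fold.

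Under the standard scaling not all genes of the B lineage fell. Of the 2 signalling chains of the B cell receptor, Cd79a moved by a log2 fold change of -0.24 and Cd79b by 0.12, neither past the threshold. Among 18 genes of the pre-B cell receptor and V(D)J recombination 9 fell and 4 rose, whereas 15 fell and none rose under leukocyte scaling. The 4 that rose (Btk, Cd72, Plcg2 and Syk, of which Plcg2 is named because it completes the count) are kinases, a lipase and a surface receptor, and Btk, Plcg2 and Syk also serve receptors of myeloid cells. Btk was at 146 and 142 CPM at 0 hpi and 44.5 and 42.2 CPM at 18 hpi and 144 and 148 CPM at 120 hpi. It was lower at 18 than at 0 hpi, rose by 3.37-fold and was near its 0 hpi level at 120 hpi, a call not kept under leukocyte scaling. Of 18 B lineage transcription factors 14 fell and 2 rose, and 16 fell and none rose under leukocyte scaling. Irf4 was at 185 and 179 CPM at 0 hpi and 25.3 and 25 CPM at 18 hpi and 85.5 and 89.2 CPM at 120 hpi, and Ikzf1, the Ikaros factor of all lymphocytes, at 71.8 and 72.3 CPM at 18 hpi and 154 and 166 CPM at 120 hpi. These rises of 3.47-fold and 2.22-fold were not kept under leukocyte scaling, where Irf4 did not reach 1.5-fold (log2 0.23) and Ikzf1 was lower (log2 -0.42). Erg fell too, by 40.1-fold, with 24.1-fold without replicate 1 and 88.2-fold without replicate 2 at 120 hpi.

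**Figure D3:**
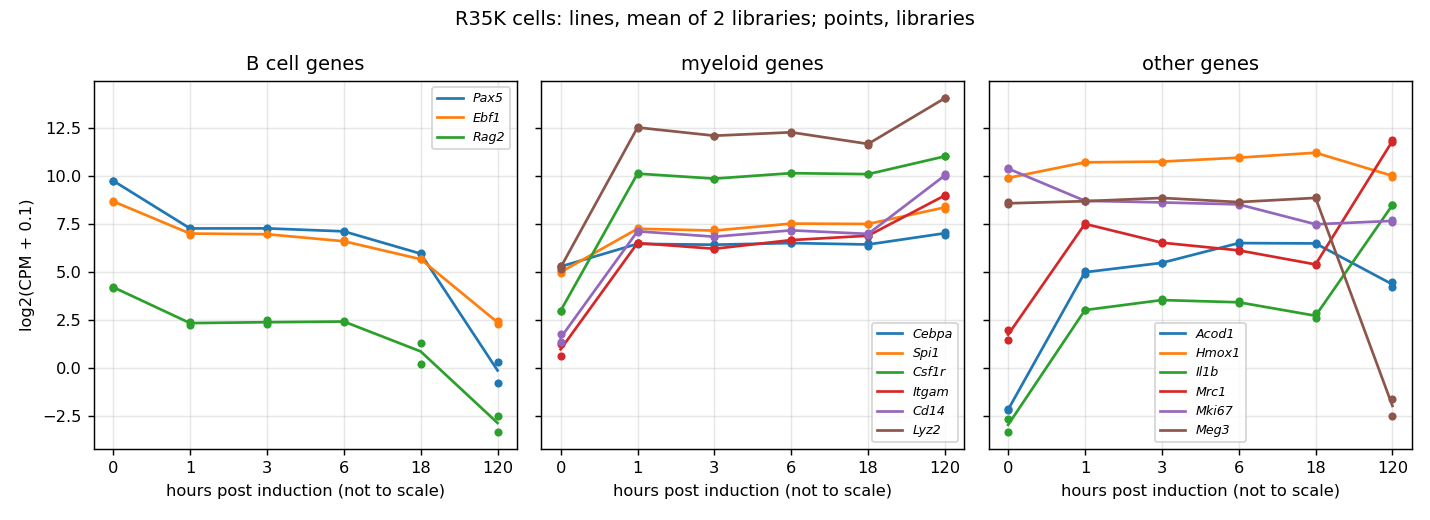
Level of 15 genes at the 6 timepoints of the R35K course, on a log2(CPM + 0.1) axis with lines through the mean of 2 libraries and points for the libraries. The B cell genes (left) were lower at 1 than at 0 hpi and fell between 18 and 120 hpi, the myeloid genes (middle) were higher at 1 than at 0 hpi and rose between 18 and 120 hpi (Cebpa, Spi1 and Csf1r fell under leukocyte scaling), and Acod1 and Hmox1 (right) were higher at 18 hpi than at 0 or 120 hpi.

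Levels before 18 hpi differed from gene to gene. Lyz2 stood at 39.3 and 36.1 CPM at 0 hpi, at 5916 and 5861 CPM at 1 hpi and at 3337 and 3171 CPM at 18 hpi and 17206 and 16787 CPM at 120 hpi, so that it was lower at 18 than at 1 hpi and highest at 120 hpi. Mrc1 was at 177 and 187 CPM at 1 hpi, lower at each of 3, 6 and 18 hpi than at the time before, and highest at 120 hpi. Il1b stayed between 5.96 and 12.1 CPM from 1 to 18 hpi and reached 361 and 358 CPM at 120 hpi. Acod1 was at 30.0 and 33.5 CPM at 1 hpi and at 93.9 and 88.1 CPM at 6 hpi, and it fell after 18 hpi. These are levels of single genes along the course, and the steps before 18 hpi were not tested here.

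Cebpa (chr7:35119293-35121928, forward strand) was at 82.6 and 90.5 CPM at 18 hpi and 138 and 122 CPM at 120 hpi, a rise of log2 0.59 ± 0.052 SE (adjusted p 2.5e-12) that lies at the 1.5-fold threshold. The call was lost with the 4 libraries alone (log2 0.56), without replicate 1 at 18 hpi (0.52), without replicate 1 at 120 hpi (0.54) and under total counts (0.30), and it turned into a fall under leukocyte scaling (log2 -0.98). Reads of the retroviral transcript and of the mouse gene cannot be told apart in these counts. Spi1 (chr2:91082390-91115756, forward strand), which encodes PU.1, was at 182 and 181 CPM at 18 hpi and 348 and 312 CPM at 120 hpi, a 1.82-fold rise, again lower under leukocyte scaling (log2 -0.71). Of 25 myeloid transcription factors 12 rose and 2 fell (median 0.53), while 1 rose and 16 fell under leukocyte scaling (median -1.04). Maf, a factor of resident macrophages, was at 50.3 and 55.7 CPM at 18 hpi and 342 and 368 CPM at 120 hpi, a 6.69-fold rise, and the stress factor Atf3 rose by 4.25-fold. The falls were Jdp2 (1.67-fold) and Egr3 (1.64-fold). Of 12 integrin genes 4 rose and 3 fell, whereas 1 rose and 8 fell under leukocyte scaling (median -1.63). The leukocyte chain Itgax rose by 5-fold, and Itgb3, Itgav and Itgb1, which fibroblasts also carry, fell by 4.63-fold, 3.76-fold and 2.52-fold. Among 13 progenitor genes 5 rose and 8 fell, with Cd33 (9.3-fold) and the granulocyte growth factor receptor Csf3r (8.72-fold) in front, and with Cd34 (at least 68.6-fold lower) and Gata2 (28.6-fold), which also mark other stromal or vascular cells, at the other end. Granule genes of neutrophils did not move together: 5 of 13 rose and 3 fell, and 2 of the fallen genes, Ngp (5 and 4 counts at 18 hpi) and S100a9 (10 and 8 counts), rest on few reads.

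Genes of mitosis rose under the standard scaling while Mki67 did not reach 1.5-fold. Mki67, a marker of cycling cells, was at 1329.6 and 1345 CPM at 0 hpi and 176 and 184 CPM at 18 hpi and 195 and 211 CPM at 120 hpi, a change of log2 0.18 ± 0.041 SE which is below that size (adjusted p 0.000237). Of 31 genes of mitosis 22 rose and none fell (median 0.78), led by the centromere histone Cenpa and the spindle checkpoint kinase Ttk (2.84-fold and 2.58-fold). Cenpa was at 59 and 63 CPM at 18 hpi and 164 and 183 CPM at 120 hpi. Under leukocyte scaling none rose and 22 fell (median -0.79), so their direction depends on the scaling. Of 38 genes of DNA replication 8 rose and 5 fell (median 0.42), with Pola1 (1.98-fold) and Rfc2 (1.86-fold) the largest rises and the licensing factors Cdt1 (2.19-fold) and Orc6 (1.95-fold) the largest falls, and 37 fell under leukocyte scaling. Of 25 genes of the G1 phase 8 rose and 6 fell (median 0.39, and -1.18 under leukocyte scaling). Cyclin D1, Ccnd1, was at 97.6 and 103 CPM at 18 hpi and 331 and 345 CPM at 120 hpi, and the cell cycle inhibitor Cdkn1a at 1998 and 2000.5 CPM at 18 hpi and 881 and 828 CPM at 120 hpi. Ccnd1 rose by 3.37-fold, a call not kept under leukocyte scaling (log2 0.18), and Cdkn1a fell by 2.34-fold. Ribosome biogenesis was the 1 list of growth genes that fell on both scalings, with 13 of 23 genes lower and none higher (median -0.62), and all 23 lower under leukocyte scaling. The ribosome assembly factor Utp20 fell by 2.54-fold and nucleolin, Ncl, by 1.67-fold.

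The mitosis list shares a promoter feature. The cell cycle homology region, TTTGAA, is the element through which cell cycle genes are kept silent outside the cycle. It was found on either strand in 18 of 25 promoters (72%) of 24 mitosis genes, against 1831 of 14646 promoters (12.5%) of all tested genes. In DNA replication it was found in 14.3% of promoters. The lysosomal motif TCACGTGA was found in 6 of 31 lysosome promoters (19.4%) and 1.65% of all, and the C/EBP palindrome TTGCGCAA in none of the 5 lists searched and 0.287% of all promoters. The 2 E2F motifs TTTGGCGC and TTTCCCGC were found in 17.1% and 20.0% of the 35 DNA replication promoters and in 0.86% and 1.84% of all promoters. A match is only a match of letters. The promoters of Cenpa and Plk1, mitosis genes that rose under the standard scaling and not under leukocyte scaling, are shown from RefSeq (GRCm38.p6, 250 bases before to 50 after the gene start, 5′ to 3′) with the TTTGAA motif in capitals. It begins 16 bases after the start in Cenpa and 30 after it in Plk1. Only promoters with a match are printed, and that of Ccnb1 held none.
Cenpa (chr5:30666636-30666935, forward strand): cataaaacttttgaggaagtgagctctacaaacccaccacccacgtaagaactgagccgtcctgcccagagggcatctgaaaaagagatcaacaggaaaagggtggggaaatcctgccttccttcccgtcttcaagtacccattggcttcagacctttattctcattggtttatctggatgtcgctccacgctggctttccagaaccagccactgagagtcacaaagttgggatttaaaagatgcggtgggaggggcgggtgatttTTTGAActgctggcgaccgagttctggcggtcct
Plk1 (chr7:122159185-122159484, forward strand): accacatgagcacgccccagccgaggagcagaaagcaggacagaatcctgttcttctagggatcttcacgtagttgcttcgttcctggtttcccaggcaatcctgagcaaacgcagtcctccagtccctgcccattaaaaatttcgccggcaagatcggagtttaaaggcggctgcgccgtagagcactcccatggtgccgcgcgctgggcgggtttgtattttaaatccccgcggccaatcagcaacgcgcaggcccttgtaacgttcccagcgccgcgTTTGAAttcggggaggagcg

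The 10 largest falls were not B cell genes. Wnt5a (chr14:28504750-28527448, forward strand), a secreted Wnt ligand of mesenchyme, was at 59.1 and 60.1 CPM at 0 hpi, 85.2 and 88.4 CPM at 18 hpi and 0 CPM in both libraries at 120 hpi, at least 367-fold lower against a floor of 3 counts per library. The imprinted noncoding RNA Meg3 (chr12:109541001-109571726, forward strand) was at 395 and 369 CPM at 0 hpi, 456 and 474 CPM at 18 hpi and 0.0797 and 0.234 CPM at 120 hpi, at least 1966-fold lower. The others were the chloride channel Ano1, the fibrillar collagen Col11a1, the guidance receptor Robo1, Cthrc1, the desmosome protein Dsp, Sema6a, the matrix proteoglycan Fmod and Slitrk5. In these 8 genes both libraries at 120 hpi had 0 counts, and the bounds on their falls lay between 102-fold and 259-fold. All 10 genes were expressed at 0 hpi too, which the plot of the largest changes shows, and none had been lost by 18 hpi. Of the 12 fibroblast markers, all 12 fell, with a median log2 fold change of -3.79. The falls were uneven. Thy1 fell from 236.1 and 230.7 CPM to 0.717 and 0.0779 CPM, and Sparc from 1079 and 1039 CPM to 97.2 and 84.0 CPM. Col1a2 fell only from 413.3 and 421.2 CPM to 236.7 and 200.8 CPM. The part of feeder cells in the falls of these genes was not tested.

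The change from 18 to 120 hpi was then compared with that of wild-type and R35A cells, which share no library with it, in a fit of all 36 libraries (17277 genes). Across genes the R35K change ran parallel to both (Spearman's rho 0.887 with wild type and 0.919 with R35A, as a description, since genes are not independent). The R35K libraries come in a table of their own, and a batch that acts on this interval in 1 construct cannot be told apart from the construct. Against wild type, 1796 genes (10.4%) had a higher and 2194 (12.7%) a lower change in R35K cells. Against R35A the numbers were 297 (1.72%) and 737 (4.27%). Under leukocyte scaling they became 13184 higher and 216 lower against wild type, and 3431 higher and 189 lower against R35A. Fibroblast marker sums fell from 6214 and 6314 CPM to 230.3 and 257.7 CPM in wild-type cells and from 4586 and 4595 CPM to 761.0 and 768.3 CPM in R35A cells, a steeper fall in wild-type than in R35K cells, and the part of feeder cells in the differences was not tested.

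Macrophage genes of R35K cells rose less than those of wild-type cells in this interval, from higher levels at 18 hpi, where the macrophage marker sum was 317 to 323 CPM in wild-type and 1164 to 1176 CPM in R35A cells. On the macrophage list of the study 19 of 20 genes had a smaller change in R35K than in wild type and none a larger one, with median log2 fold changes of 2.56 in R35K, 4.42 in wild type and 2.64 in R35A. Under leukocyte scaling 8 were smaller and 2 larger. Against R35A 4 were smaller and 1 larger, and under leukocyte scaling none was smaller and 5 were larger. For Cd14, means were 128 ± 5.31 CPM (SD, n = 2) at 18 hpi and 1098 ± 67.6 CPM at 120 hpi in R35K cells, and 22.2 ± 0.705 CPM and 1425 ± 2.51 CPM in wild-type cells, a difference in log2 change of -2.89 ± 0.068 SE (adjusted p 3.31e-39, edgeR). For Lyz2, means were 3273 ± 116 CPM (SD, n = 2) at 18 hpi and 17768 ± 363 CPM at 120 hpi in R35K cells, and 513 ± 0.912 CPM and 11812 ± 163 CPM in wild-type cells, a difference in log2 change of -2.09 ± 0.043 SE (adjusted p 4.51e-42, edgeR). In both genes the R35K cells started higher at 18 hpi, and Cd14 ended lower and Lyz2 higher at 120 hpi than in wild type. For Spi1, means were 183 ± 0.21 CPM (SD, n = 2) at 18 hpi and 345 ± 27.6 CPM at 120 hpi in R35K cells, and 43.3 ± 0.247 CPM and 403 ± 17.9 CPM in wild-type cells, a difference in log2 change of -2.30 ± 0.069 SE (adjusted p 1.71e-34, edgeR). Under leukocyte scaling the differences from wild type were -1.15 for Cd14, -0.34 for Lyz2 and -0.55 for Spi1 on the log2 scale, so that Cd14 alone of the 3 still passed 1.5-fold. The same order held for the Fc and Toll-like receptors (15 of 18 smaller in R35K than in wild type, 1 larger), the MHC class II list (11 of 13 smaller) and all 6 NADPH oxidase genes, although under leukocyte scaling the counts for these lists were 6 smaller and 5 larger, 2 and 2, and 2 and 0. Under the standard scaling Acod1 went in opposite directions, with a log2 fold change of -2.08 in R35K, -1.85 in R35A and 2.12 in wild type. The difference from wild type was -2.46 under leukocyte scaling. The wild-type change by itself was not fitted under that scaling, so opposite directions are not shown there. Its mean level was 90.4 CPM in R35K, 79.0 CPM in R35A and 5.95 CPM in wild-type cells at 18 hpi, and 21.4, 21.8 and 25.9 CPM at 120 hpi.

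**Figure D4:**
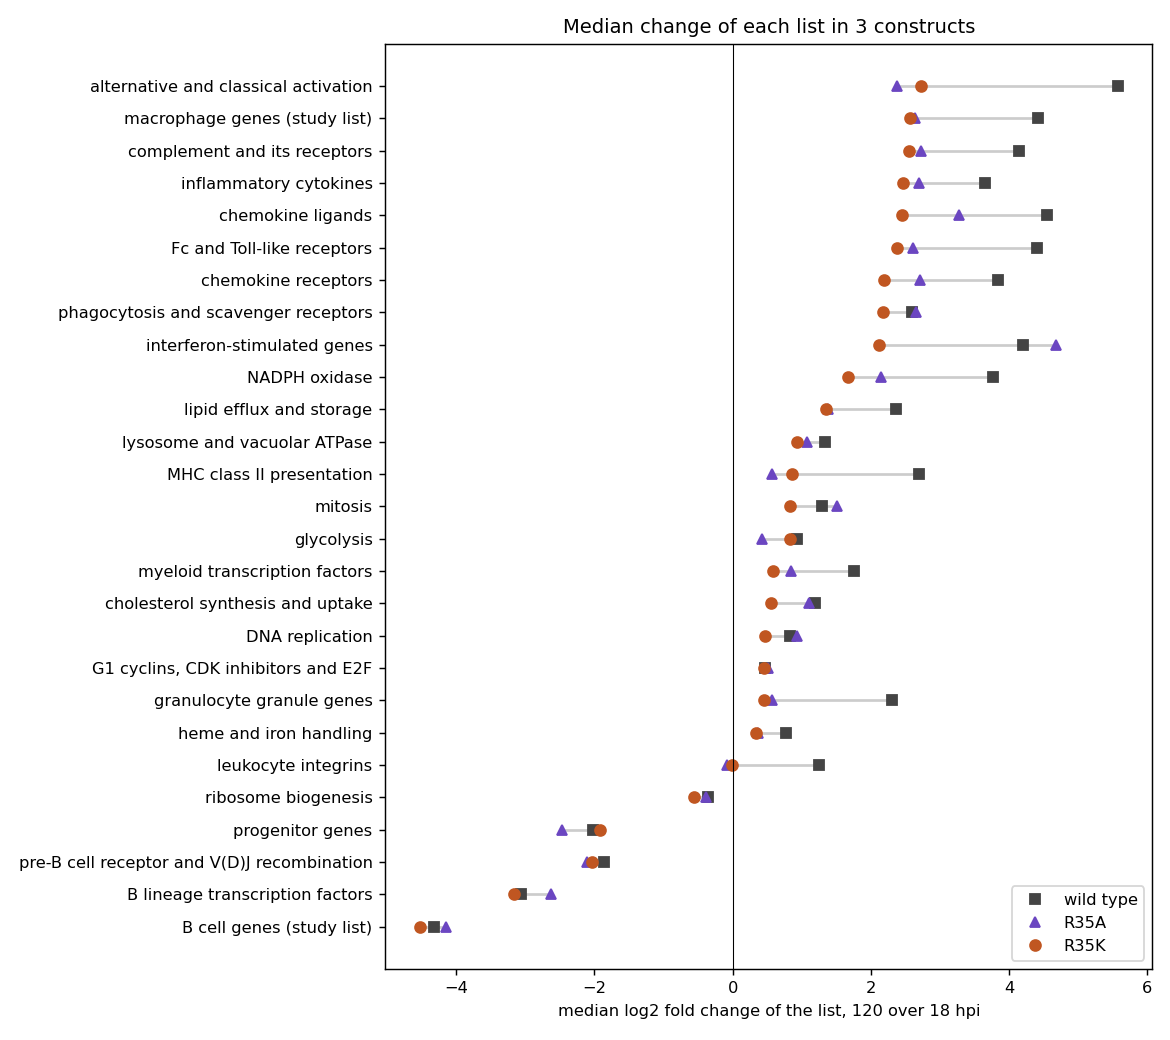
Median log2 fold change from 18 to 120 hpi of 27 gene lists in wild-type (squares), R35A (triangles) and R35K cells (circles), all under the standard scaling. R35K and R35A lie close for most macrophage lists while wild type lies further right, and the interferon-stimulated genes are the exception, with R35K at 2.12, wild type at 4.20 and R35A at 4.68. Under leukocyte scaling the difference from wild type turned positive for several lists, such as lysosome, mitosis and myeloid transcription factors.

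The interferon-stimulated genes, which cells switch on in response to type I interferon to limit viruses, rose less as a group in R35K than in both other constructs. Against wild type this was shared with macrophage lists, with a median difference of -2.25 here and -2.06 for the macrophage list of the study. Against R35A these were -1.94 and -0.36. In R35K cells 24 of 25 rose and 1 fell between 18 and 120 hpi (median 2.07), with 11 risen and 3 fallen under leukocyte scaling. Oas2, an antiviral RNA-sensing enzyme, was at 24.4 and 23.7 CPM at 18 hpi and 276 and 285 CPM at 120 hpi, and Ifi44 at 1.35 and 1.46 CPM at 18 hpi and 16.8 and 18.15 CPM at 120 hpi. They rose by 11.7-fold and 12.4-fold. Oasl1, a relative of the Oas enzymes, was the exception at 53 and 55.9 CPM at 18 hpi and 35.3 and 35.5 CPM at 120 hpi, a fall of log2 -0.62 ± 0.067 SE that was not called with DESeq2, with its size factors, with all 36 libraries (log2 -0.57, -0.57 and -0.56) or without replicate 2 at 18 hpi or replicate 1 at 120 hpi (log2 -0.58 each). Compared with R35A the change was smaller in 24 of the 25 genes and larger in none, and under leukocyte scaling still smaller in 21 and larger in none (median difference -1.45). Compared with wild type it was smaller in 22, and under leukocyte scaling smaller in 11 and larger in 6.

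Mx1, Rsad2, Ifit3 and Cmpk2, named for their large differences, stood higher in R35K cells at 18 hpi and lower at 120 hpi. Their choice by the size of the difference favours such a pattern, so it is no separate evidence. Mx1 (chr16:97447035-97462907, reverse strand), an antiviral GTPase, had a mean of 29.6 ± 0.738 CPM (SD, n = 2) in R35K cells at 18 hpi, against 4.02 ± 0.762 CPM in R35A and 1.37 ± 0.051 CPM in wild type. At 120 hpi the means were 129.1 ± 7.9 CPM, 192 ± 7.27 CPM and 160 ± 1.82 CPM. R35K cells were thus the highest of the 3 at 18 hpi and the lowest at 120 hpi, with no overlap of mean and SD. The difference in the log2 change was -3.47 against R35A and -4.74 against wild type (adjusted p 5.17e-30 and 1.63e-33, edgeR). Under leukocyte scaling these were -2.98 and -3.00. Rsad2 was at 34.1 CPM in R35K, 5.2 CPM in R35A and 1.35 CPM in wild-type cells at 18 hpi, and at 134, 223 and 219 CPM at 120 hpi. Ifit3 was at 12 CPM in R35K, 1.99 CPM in R35A and 1.62 CPM in wild-type cells at 18 hpi, and at 26.2, 57.3 and 38.1 CPM at 120 hpi. Cmpk2 was at 12.9 CPM in R35K, 2.34 CPM in R35A and 2.58 CPM in wild-type cells at 18 hpi, and at 33.2, 74.3 and 56.1 CPM at 120 hpi. Under leukocyte scaling the 3 genes also had a smaller change than in both other constructs (log2 differences between -1.34 and -3.60). In these 3 genes too R35K cells had the highest mean at 18 hpi and the lowest at 120 hpi. In the R35K course itself Mx1 was at 5.18 and 6.09 CPM at 1 hpi, 13.5 and 15.2 CPM at 6 hpi and 30 and 28.9 CPM at 18 hpi and 118 and 129 CPM at 120 hpi, a stepwise increase over the whole course.

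Promoters of interferon-stimulated genes often carry an element bound by interferon-activated factors. Its core, a pair of GAAA repeats with 2 bases between them, was searched on either strand (a motif added after the data were seen) and was found in 11 of 22 promoters (50%) of 19 of these genes and in 469 of 14646 promoters (3.2%) of all tested genes. The promoters of Rsad2, Ifit3 and Isg15, 3 of the genes with a smaller change in R35K than in R35A, are shown with the matches in capitals, read as TTTC pairs where they lie on the other strand (RefSeq, GRCm38.p6, same window). The match begins 120 bases before the start in Rsad2, 156 and 122 before it in Ifit3, and 78, 72 and 66 before it in Isg15, where 3 matches overlap. Here too only promoters with a match are printed, and those of Cmpk2 and Oasl2 held none.
Rsad2 (chr12:26456403-26456702, reverse strand): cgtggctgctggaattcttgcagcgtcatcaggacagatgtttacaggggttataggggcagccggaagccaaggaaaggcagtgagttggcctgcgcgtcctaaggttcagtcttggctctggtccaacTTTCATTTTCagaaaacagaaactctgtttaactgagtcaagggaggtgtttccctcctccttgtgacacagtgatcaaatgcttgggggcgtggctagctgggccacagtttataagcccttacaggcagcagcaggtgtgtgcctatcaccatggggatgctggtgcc
Ifit3 (chr19:34583279-34583578, forward strand): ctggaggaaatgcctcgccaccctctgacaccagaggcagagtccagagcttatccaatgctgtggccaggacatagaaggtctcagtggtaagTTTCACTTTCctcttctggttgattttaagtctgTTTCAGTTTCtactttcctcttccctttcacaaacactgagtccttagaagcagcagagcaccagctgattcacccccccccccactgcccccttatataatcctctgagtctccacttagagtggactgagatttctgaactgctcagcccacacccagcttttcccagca
Isg15 (chr4:156200769-156201068, reverse strand): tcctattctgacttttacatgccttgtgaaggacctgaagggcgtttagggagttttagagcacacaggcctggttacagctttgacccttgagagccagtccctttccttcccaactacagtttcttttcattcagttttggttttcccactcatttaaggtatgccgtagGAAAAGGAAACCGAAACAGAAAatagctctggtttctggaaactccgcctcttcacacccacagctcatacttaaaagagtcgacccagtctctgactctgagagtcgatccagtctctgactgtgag

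**Figure D5:**
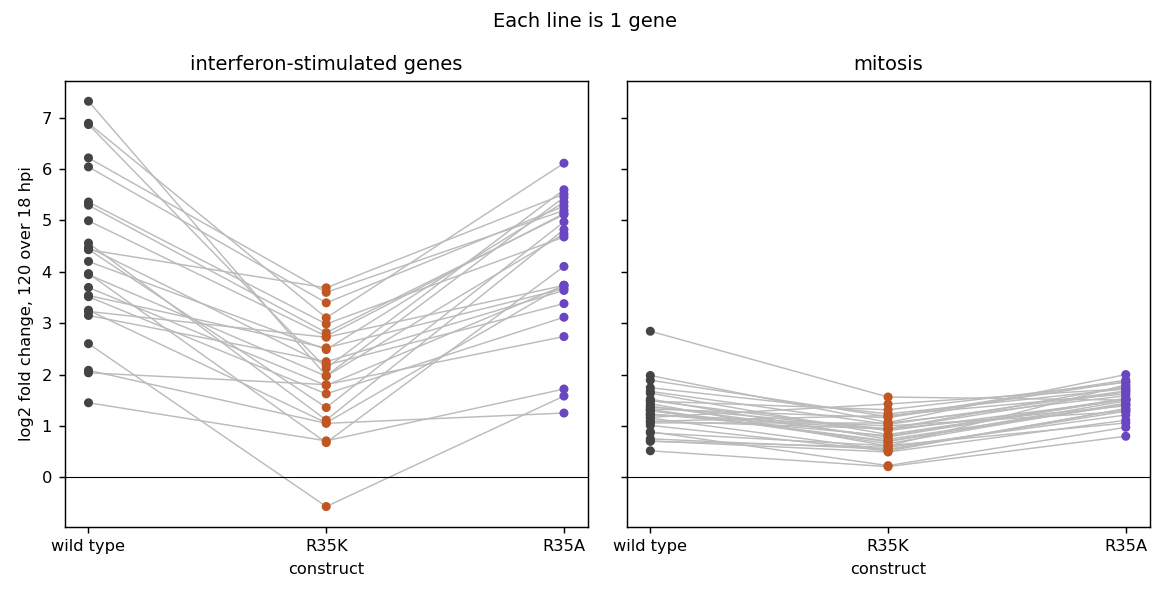
Log2 fold change from 18 to 120 hpi of each interferon-stimulated gene (left) and each mitosis gene (right) in wild-type, R35K and R35A cells, under the standard scaling, with 1 line per gene. Most lines dip at R35K in the left panel, by a median of 1.94 against R35A, and dip less in the right panel, where under leukocyte scaling the change is larger in R35K than in wild type for 30 of 31 genes.

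Mitosis genes also rose less in R35K than in R35A cells under the standard scaling, with a smaller change in 22 of 31 and a larger one in none (median difference -0.68), but under leukocyte scaling in 1 (median difference -0.19). Against wild type 13 had a smaller change, and under leukocyte scaling none had a smaller and 30 a larger one. Inflammatory cytokines went the other way, with 7 of 15 genes rising more in R35K than in R35A and 2 less, and 9 more and none less under leukocyte scaling. For Il1b, means were 6.57 ± 0.815 CPM (SD, n = 2) at 18 hpi and 376 ± 3.79 CPM at 120 hpi in R35K cells, and 20.3 ± 0.781 CPM and 308 ± 13.5 CPM in R35A cells, a difference in log2 change of 1.91 ± 0.11 SE (adjusted p 3.42e-21, edgeR). In wild-type cells its means were 2.37 ± 0.0768 CPM and 585 ± 5.8 CPM, a difference in log2 change of -2.11 ± 0.17 SE (adjusted p 2.14e-16, edgeR). Il1b thus rose more in R35K than in R35A, from a lower level at 18 hpi, and under the standard scaling less than in wild type. Under leukocyte scaling the difference in log2 change was 2.41 from R35A and -0.37 from wild type, the second not called. The glycolysis list had 4 of 18 genes with a larger and 1 with a smaller change than R35A, and 14 and 0 under leukocyte scaling. Against wild type 2 had a larger and 5 a smaller change, and under leukocyte scaling 15 and 0. The hypoxia-inducible gene Ankrd37 was among the 5 largest differences from R35A. For Ankrd37, means were 9.67 ± 0.603 CPM (SD, n = 2) at 18 hpi and 29.5 ± 0.693 CPM at 120 hpi in R35K cells, and 24.4 ± 2.13 CPM and 19 ± 0.106 CPM in R35A cells, a difference in log2 change of 1.96 ± 0.14 SE (adjusted p 2.22e-16, edgeR). For the B cell list of the study, 5 of 20 genes had a larger fall in R35K than in R35A and none a smaller one, among them Pax5 (log2 fold change -6.16 against -4.52, with about 1 CPM left at 120 hpi), and under leukocyte scaling 3 had a larger and 3 a smaller fall.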

How the data were processed

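RNA was measured by stranded, single-end, poly(A) RNA-seq in 36 libraries, 2 per group. The authors aligned reads to mm10 with STAR 2.5.0a after FastQC and deposited raw counts per gene, and their notes name DESeq2 1.14.1. Their log2 tables were not used. The annotation release and the strand setting of the counting are not given in the sources used here. Counts of the 12 R35K libraries (40354 genes) were filtered with filterByExpr, scaled by TMM and tested with edgeR 4.0.16 (quasi-likelihood test, R 4.3.3, Benjamini-Hochberg adjustment over 16434 genes). A call needed a change of at least 1.5-fold and an adjusted p of at most 0.05. Differences between constructs were interaction terms in a fit of all 36 libraries, joined by symbol, and means by construct and marker sums were scaled over these 36 libraries. Scripts were tested on simulated data. The p-values measure the spread between 2 replicate libraries. The largest falls were bounded with a floor of 3 counts per library.

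The members and gene lists were chosen with earlier results of these data known. Named genes were the 10 largest rises and falls with at least 20 CPM in the higher group, for each list the 2 largest rises and falls and the member with the highest CPM, the anchors Cebpa, Spi1, Itgam, Lyz2, Csf1r, Cd14, Pax5, Ebf1, Rag2 and Mki67 and the 5 largest differences in each direction per construct. Immunoglobulin, T cell receptor and predicted genes were passed over in the first and last of these, and a few genes that the rule names are not reported here. Other genes (Fam20c, Axl, Arg1, Nos2, Cd79a, Cd79b, Plcg2, Plk1, Ccnb1, Isg15, Oasl2, Mmp8, Bst2, Pf4, Thy1, Sparc and Col1a2) were named after their values were seen. Coordinates are those of GENCODE vM21 (mm10), which held 97.07% of the symbols. Replicate numbers were checked for pairing: deviations of same-numbered libraries had correlations between -0.10 and 0.19 over 15 group pairs, with 6 above 0.1, so the numbers were not used as pairs. Alternatives were DESeq2 1.42.0, its size factors, total counts, other filters and thresholds, fewer or more libraries, each library left out and, chosen after the data were seen, scaling to 16 leukocyte genes.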

Additional observations from a re-analysis of the deposited data

Results flagged for a closer look

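The change from 18 to 120 hpi differed between R35K and wild-type cells for 3990 genes and between R35K and R35A cells for 1034 genes, by the interaction test in edgeR. Under leukocyte scaling these were 13400 and 3620 genes. The largest differences in log2 change were read by gene, as R35K minus the other construct.

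Against wild type, the interferon-related genes Mx1 (-4.74), Rsad2 (-5.34) and Slfn1 (-5.07) and the macrophage gene Aif1 (-5.56) rose less in R35K cells. Aif1 had a mean of 8.84 CPM at 18 hpi and 72.9 CPM at 120 hpi in R35K cells, and 0.237 and 97.8 CPM in wild type. Vldlr, a lipoprotein receptor, fell less in R35K cells (4.20), from 41.5 to 12.8 CPM against 49.8 to 0.824 CPM. Under leukocyte scaling the differences of Mx1, Rsad2, Aif1 and Vldlr were -3.00, -3.60, -3.85 and 5.91. Limch1 (6.11), Lrrc15 (5), Igfbp3 (4.86), Btbd11 (4.69) and Ednra (-4.41) had at most a few counts at 120 hpi in at least one of the constructs, so their fitted values depend on the prior count and give no fold. All but Limch1 lost the call without either wild-type library at 120 hpi, and Lrrc15 fell to 0.59 without R35K replicate 2 at 120 hpi. Slfn1, with at most 7 counts in R35K cells at 18 hpi, lost it without R35K replicate 2 at 18 hpi (-3.15) or either wild-type library at 18 hpi (-5.07 and -5.06). Slfn1 (-5.00) and Ednra (-1.31) also lost the call under leukocyte scaling.

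Against R35A, Mx1 (-3.47), Ifit3 (-3.70), Cmpk2 (-3.61) and Ifit1bl1 (-3.61), all interferon-related, had a smaller change in R35K cells, and Il1b (1.91) and Ankrd37 (1.96) a larger one. Under leukocyte scaling these differences were -2.98, -3.21, -3.12, -3.11, 2.41 and 2.45. Ifit1bl1 itself was not called as changed in R35K cells (log2 0.40). The mean of Ankrd37 in R35A cells was lower at 120 than at 18 hpi. Ifit1bl1 is a close relative of Ifit1, and reads could be split between them. Zfp521 (5.09), Arhgap44 (-5.69), Mmp3 (2.61) and S1pr3 (1.74) rest on few counts at 120 hpi. Zfp521 lost the call without either R35A library at 120 hpi (5.06 each) or R35K replicate 2 at 120 hpi (4.77), S1pr3 without replicate 2 of R35A (1.17) or of R35K (1.37), and Mmp3 without R35A replicate 2 (2.29) or R35K replicate 1 (2.20) at 120 hpi.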

How the results depend on the processing

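The alternatives were applied to the 125 genes named by rise, fall, abundance or as anchors. Genes named only for a difference between constructs were left out of this count. Of 1623 values 1578 kept direction and side of the threshold, 25 lost and 2 gained the call and 18 turned. All 18 turned under leukocyte scaling (log2 fold change): Cd72 -0.29, Cebpa -0.98, Cenpa -0.062, Csf1r -0.64, E2f2 -0.29, Fth1 -1.40, Ifitm3 -0.57, Ikzf1 -0.42, Klf6 -1.11, Lrp1 -0.64, Mki67 -1.40, Pola1 -0.58, Rfc2 -0.68, Rrm1 -1.12, Spi1 -0.71, Syk -0.82, Tcf4 -1.20 and Ttk -0.20. So did list medians: myeloid transcription factors -1.04, lysosome -0.69, MHC class II -0.77, granule genes -1.17, DNA replication -1.15, mitosis -0.79, G1 genes -1.18, cholesterol -1.07, lipid efflux -0.27, glycolysis -0.79 and heme and iron -1.29. Other rises kept their direction under this scaling but lost the call: Atf3 0.52, Btk 0.18, Ccnd1 0.18, Cd2 0.53, Cd74 0.017 and Cybb 0.30. Dhcr7 0.29, Insig1 0.027, Irf4 0.23, Itgam 0.53, Psap 0.14 and Slc40a1 0.18 lost it too. This scaling gave 14141 changed genes, 772 higher and 13369 lower, and differences for 13400 (wild type) and 3620 genes (R35A). It assumes that the 16 genes did not change per leukocyte, which was not tested. The heme and iron median was -0.0046 under total counts. A further median log2 fold change, leukocyte integrins, ranged from -0.0596 to 0.012 with 1 R35K library left out and was 0.012 without replicate 2 at 18 hpi or replicate 1 at 120 hpi.

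A 2-fold threshold gave 2696 higher genes and differences for 2548 (wild type) and 405 genes (R35A), and no fold threshold gave 6108 higher genes. Leaving out 1 library gave 8624 to 8676 changed, 4032 to 4210 higher and 4414 to 4621 lower genes, and differences for 3720 to 3862 (wild type) and 896 to 1102 genes (R35A). With the replicate block 4064 genes were higher and 4677 lower, and 3973 and 1026 differed from wild type and R35A. Genes at the floor at 120 hpi are limited by depth to bounds.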
